A study of Mus musculus with 2 samples.

Results

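The 9 genes described here carry the signal of the T-cell receptor from the membrane into the cell. They are the Src-family kinases Lck and Fyn, the Syk-family kinase Zap70, the adaptors Lat and Lcp2, the phosphatases Ptprc and Ptpn22, the costimulatory receptor Cd28 and the protein kinase C isoform Prkcq. They were taken as a named set of genes, and each was given every Myc-Tag interval that overlapped its gene body, or the 10 kb on either side of it, by at least 1 bp in mouse build mm10. An interval is a stretch of genome in which the peak caller found more Myc-Tag ChIP fragments than its threshold requires, and its summit is the position of the highest signal. Of the 9 genes, 6 had an interval, and the 7 intervals at them were among 3477 in the whole library. The same rule was applied to all 21887 protein-coding genes of the RefSeq table, of which 4168 (19.0%) had an interval.

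The data are 1 chromatin immunoprecipitation sequencing (ChIP-seq) library made with a Myc-Tag antibody and 1 input library, both from a T-cell lymphoma of a Lck-Dlx5 mouse. In this mouse the Lck promoter drives the homeobox gene Dlx5 in thymic T cells, and the transgene's protein carries a Myc-Tag that the antibody recognizes. The labels call both samples primary tumor and give the strain as C57BL/6 for the ChIP and, as spelled there, C57BL/7 for the input, whereas the study's methods name a Lck-Dlx5 cell line and an IgG control. Both libraries carry the transgene, and neither an age nor a treatment is given in the labels. With 1 library per group, no comparison between conditions could be tested, each value below is a single value without an error, and the lymphoma stands for itself alone. Read depth is unknown, since the deposited values are heights and not counts. A gene without an interval is one at which none passed the calling threshold, which does not show that Dlx5 was absent from it.

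When the T-cell receptor meets its ligand, Lck phosphorylates the CD3 and zeta chains, and Zap70 docks on them and is activated. Zap70 then phosphorylates the adaptors Lat and Lcp2 (also called SLP-76), which gather phospholipase and exchange factors and so start calcium, Ras and NF-kappaB signaling, the last through Prkcq. Ptprc (CD45) and Ptpn22 are tyrosine phosphatases that set how active Lck is, and Cd28 supplies the costimulatory signal.

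The promoter sequences of the genes at which a summit met a start are shown first. Regulatory sequence elsewhere in or near the genes was not analysed here. RefSeq lists a 300-base window, from 250 bases before to 50 bases after a transcription start, for 8 of the 9 genes, with 13 starts among them, on build GRCm38.p6 (mm10). Cd28 is the gene that did not match. A script searched both strands for TAATT, the core bound by Dlx proteins, for the shorter homeodomain core TAAT, which every TAATT contains, for the Ets sequence CCGGAAGT and for the Runx sequence TGTGGT. Matches are in capitals on either strand, so that a match on the opposite strand reads as its reverse complement (AATTA, ATTA or ACCACA), and the start is base 251 of each window. The Lck windows, on the minus strand at chr4:129558323-129558622 (proximal) and chr4:129573592-129573891 (distal), are shown because Lck has a start at which an interval was called and another at which none was. The proximal window held the summit and none of the 4 sequences, so it has no capitals.
Lck proximal: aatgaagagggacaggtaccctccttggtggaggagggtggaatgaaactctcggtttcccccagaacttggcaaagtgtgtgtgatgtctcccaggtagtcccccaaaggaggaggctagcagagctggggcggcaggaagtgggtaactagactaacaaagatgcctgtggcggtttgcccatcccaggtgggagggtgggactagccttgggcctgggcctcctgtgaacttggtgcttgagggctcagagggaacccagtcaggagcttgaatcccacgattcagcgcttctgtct
Lck distal: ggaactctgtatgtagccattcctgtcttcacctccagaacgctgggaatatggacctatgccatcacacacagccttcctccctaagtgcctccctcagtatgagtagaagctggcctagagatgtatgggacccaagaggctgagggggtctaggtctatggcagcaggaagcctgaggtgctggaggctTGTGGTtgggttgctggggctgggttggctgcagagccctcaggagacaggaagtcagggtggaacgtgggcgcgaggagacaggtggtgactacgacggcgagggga

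Ptpn22 has its starts close together on the plus strand, at chr3:103859545-103859844 (the upstream window) and chr3:103860027-103860326 (the downstream window). They are shown because 1 interval covered both starts, and the downstream window held its summit at base 214. In that window a TAATT began at base 225, which is 11 bases after the summit, and a TGTGGT match on the opposite strand ended 6 bases before the summit. This summit, as most in the library (3329 of 3477), is on a multiple of 16 bp. Gaps of 11 and 6 bases are therefore below the resolution of its position. The Lcp2 window, on the plus strand at chr11:34046678-34046977, is shown for contrast. It held 3 TAATT and 5 TAAT matches but no interval, and the summit assigned to Lcp2 lay 17.2 kb downstream of it.
Ptpn22 downstream: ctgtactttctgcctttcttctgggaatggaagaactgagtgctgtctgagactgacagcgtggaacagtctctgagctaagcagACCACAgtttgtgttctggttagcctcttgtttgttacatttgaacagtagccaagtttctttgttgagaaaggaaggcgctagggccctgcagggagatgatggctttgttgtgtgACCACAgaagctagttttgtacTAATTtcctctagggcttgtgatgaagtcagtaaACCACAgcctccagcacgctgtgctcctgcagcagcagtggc
Ptpn22 upstream: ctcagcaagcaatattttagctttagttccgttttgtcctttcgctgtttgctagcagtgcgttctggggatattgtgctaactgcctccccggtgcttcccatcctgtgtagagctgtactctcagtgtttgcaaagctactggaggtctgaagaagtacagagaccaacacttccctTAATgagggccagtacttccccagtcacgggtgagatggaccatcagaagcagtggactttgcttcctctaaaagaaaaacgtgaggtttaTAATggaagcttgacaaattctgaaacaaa
Lcp2: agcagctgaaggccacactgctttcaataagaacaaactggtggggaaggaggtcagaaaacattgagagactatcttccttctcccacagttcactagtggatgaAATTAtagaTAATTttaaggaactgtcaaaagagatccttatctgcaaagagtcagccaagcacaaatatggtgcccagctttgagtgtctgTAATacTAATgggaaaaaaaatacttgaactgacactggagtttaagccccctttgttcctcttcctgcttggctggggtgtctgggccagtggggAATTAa

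A Myc-Tag interval was present at Lck, Lcp2, Ptprc, Ptpn22, Cd28 and Prkcq, and none was present at Fyn, Zap70 or Lat. The share was 66.7% of the 9 genes, beside 19.0% of all protein-coding genes. All 6 genes kept an interval when the window was narrowed to 1 kb or to the gene body alone, where the share over all protein-coding genes was 14.2% and 13.4%. When it was widened to 50 kb, 7 of the 9 had one, beside 33.3% of all genes. Lck, whose own promoter drives the transgene, is counted apart, and without it 5 of the other 8 genes had an interval (62.5%). None of the 7 intervals was also called in the input, and no input interval lay within 10 kb of any of the 9 genes. Such calls were rare in the whole library, with 28 of 3477 Myc-Tag intervals also called in the input, so their absence does not set these genes apart. Longer genes give more room for an interval, and these genes are long, with a median of 45.4 kb against 17.2 kb for all protein-coding genes. Protein-coding genes of the same length quartiles had an interval in 21.7% of cases on average. The 9 genes are few and were chosen with results of these data known, so the shares are a description.

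**Figure D1:**
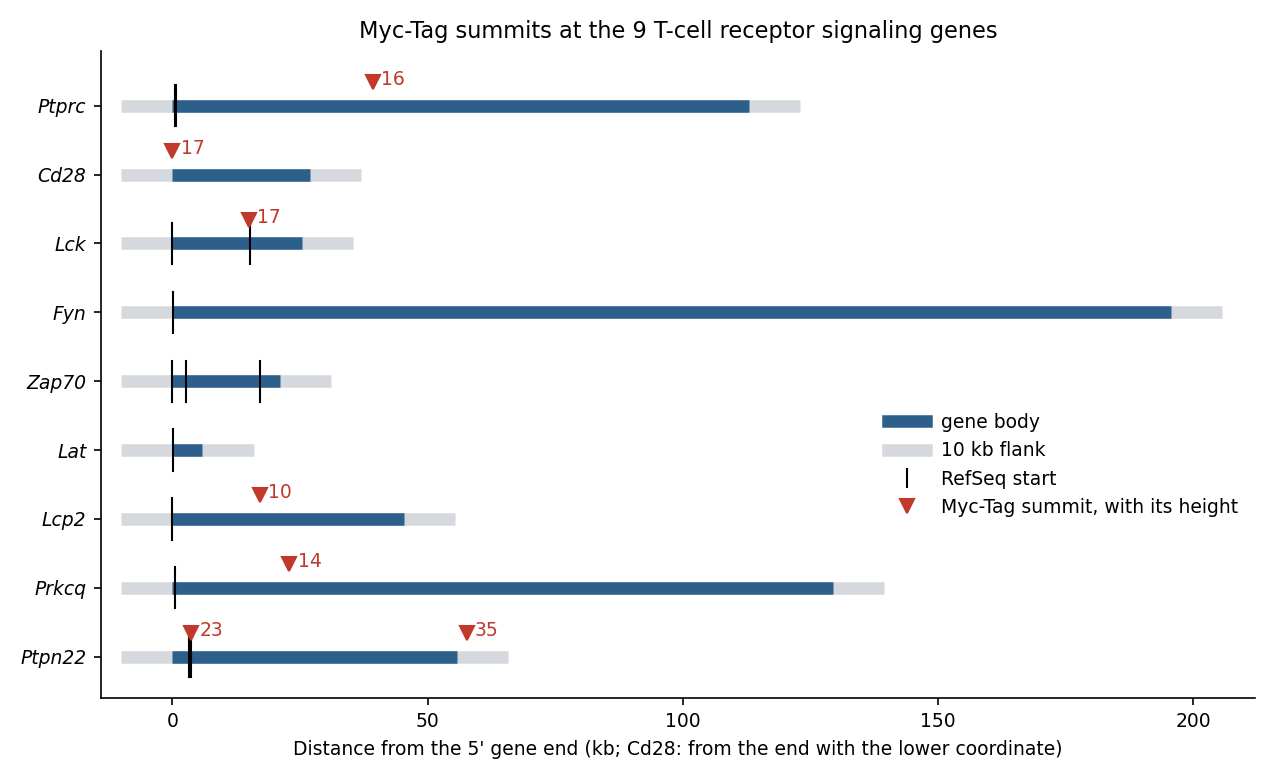
The 9 genes drawn to a common scale in kb from the 5′ gene end (Cd28 from the end with the lower coordinate), with the gene body in blue, the 10 kb flanks in grey, RefSeq starts as black ticks and Myc-Tag summits as red triangles with their heights. Summits of height 17 and 23 stand at a start of Lck and Ptpn22, a summit of 17 stands at the end of Cd28, those of Ptprc, Lcp2 and Prkcq lie inside the gene away from a start, and Fyn, Zap70 and Lat have none.

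Among the kinases that act first, Lck had 1 interval and Fyn and Zap70 had none. Lck, the kinase that phosphorylates the receptor's signaling chains, lies on the minus strand of chromosome 4 from 129548344 to 129573641. Its interval ran from 129558082 to 129559019, 938 bp wide, with a summit of height 17 at 129558592. The height is the whole number that the peak caller wrote for each summit, with no stated normalization, and over all Myc-Tag summits its median was 16 with quartiles of 13 and 19. The Lck summit was thus close to the middle of the library, with 33.9% of summits taller than it.

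The Lck summit lay inside the gene, 220 bp upstream of the proximal start at 129558372. The interval covered the whole of the proximal promoter window and the start itself. The distal start at 129573641, which is the 5′ end of the gene, was 15049 bp from the summit and was not overlapped by an interval. The proximal promoter is the one that drives the Dlx5 transgene. Neither the sequence of the transgene's promoter nor its number of copies was analysed here, and whether fragments of this interval came from the transgene or from the Lck gene was not tested. The next summits were 27.1 kb and 33.9 kb outside the gene, with heights of 11 and 10, and their nearest protein-coding genes were Tmem234 and Marcksl1.

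Fyn, the other Src-family kinase of T cells, spans 195.6 kb of chromosome 10 from 39369743 to 39565381 and was the longest of the 9 genes. No interval touched it, and the nearest summit in the genome was 197839 bp away with a height of 15. Zap70, the kinase that docks on the phosphorylated receptor, lies on chromosome 1 from 36761798 to 36782821 with 3 RefSeq starts. Its nearest summit was 204342 bp away with a height of 12. Both genes were therefore far from any call, and the surroundings were not empty of calls, with 5 summits within 1 Mb of Fyn and 9 within 1 Mb of Zap70.

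Of the adaptors, Lcp2 had 1 interval and Lat had none. Lcp2, the scaffold that Zap70 phosphorylates, lies on chromosome 11 from 34046928 to 34092281. Its interval ran from 34063693 to 34064520 and its summit at 34064080 had a height of 10. This was the lowest of the 7 heights, and only 16 of the 3477 summits in the library were lower. The summit lay 17152 bp downstream of the start, 37.8% of the way through the gene, and the interval also overlapped the long noncoding RNA gene 4930469K13Rik.

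Lat, the membrane adaptor that Zap70 also phosphorylates, is the shortest of the 9 genes at 5.879 kb. It lies on chromosome 7 from 126363827 to 126369705. The nearest summit, of height 13, was 24195 bp away at 126339632. Lat was the protein-coding gene nearest to that summit, which is why widening the window to 50 kb brought Lat in. The region around Lat held 16 summits and 65 other protein-coding genes within 1 Mb, the most of the 9 genes in both.

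Both phosphatases had an interval, and Ptpn22 was the only one of the 9 genes with more than 1. Over all protein-coding genes, 687 (3.14%) had 2 or more. Ptprc, which encodes CD45 and removes the inhibitory phosphate from Lck, lies on the minus strand of chromosome 1 from 138062859 to 138175756. Its interval ran from 138136098 to 138136991, and the summit at 138136448 had a height of 16, the median of the library. The summit lay deep in the gene, 38678 bp downstream of the nearer of the 2 starts listed. No other gene was overlapped.

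Ptpn22, which counteracts Lck and Zap70, lies on chromosome 3 from 103856575 to 103912252. Its first interval, from 103859731 to 103860650, had a summit of height 23 at 103860240. This summit was 37 bp upstream of the downstream start, and 11.4% of the library's summits were taller. The protein-coding gene Bcl2l15 ended 5622 bp from it, and Ptpn22 was the nearest gene.

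The second interval at Ptpn22 ran from 103914061 to 103915233 and had the greatest height of the 7, at 35, with 2.42% of summits taller. This summit lay 1956 bp beyond the end of Ptpn22. It was inside the next gene, Rsbn1, and 88 bp downstream of the start of that gene, which was also the nearest to it. The assignment to Ptpn22 therefore rests on the 10 kb flank, and Ptpn22 keeps its interval without it through the summit of height 23. Of the summits not called in the input, 61 in the library were taller than 35.

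**Figure D2:**
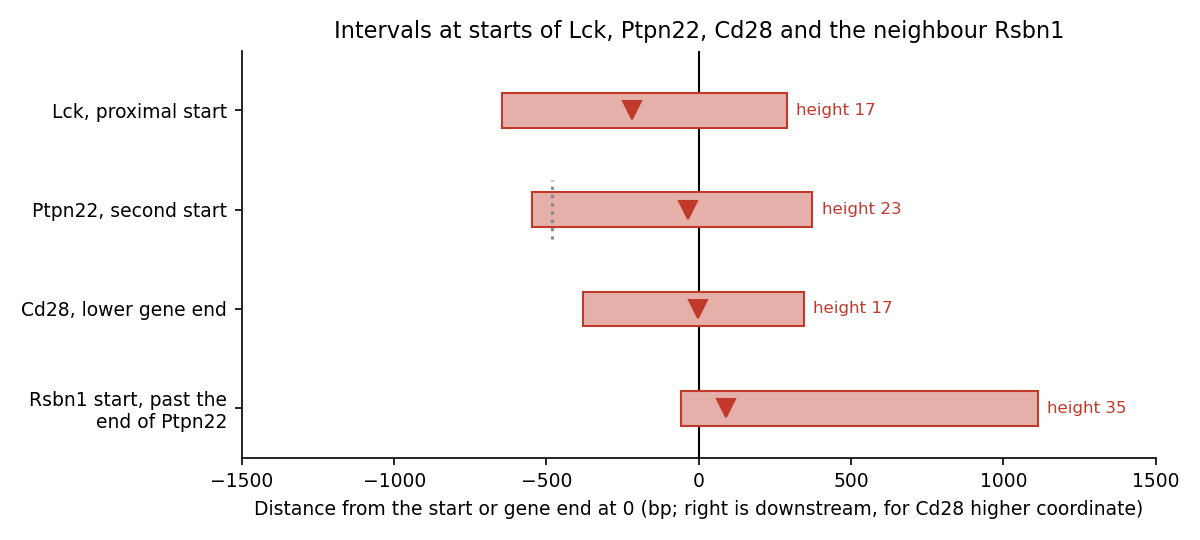
Intervals (bars) and summits (triangles) in bp from the Lck proximal start, the downstream Ptpn22 start, the end of Cd28 with the lower coordinate and the Rsbn1 start, with the upstream Ptpn22 start as a dotted line. The summits lie 220 bp and 37 bp upstream of the Lck and Ptpn22 starts, 4 bp outside Cd28 and 88 bp downstream of the Rsbn1 start. These summits are on multiples of 16 bp, so the 4 bp at Cd28 is below their resolution.

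Cd28, the receptor for the B7 ligands that gives the costimulatory signal, had an interval centred on its end. The gene lies on chromosome 1 from 60746388 to 60773359, and its strand is not in the table used here. The interval ran from 60746007 to 60746733, so that its inner part overlapped the gene, and the summit at 60746384 lay 4 bp outside the end with the lower coordinate. This summit too is on a multiple of 16 bp, so the 4 bp does not place it outside rather than inside the gene. Its height was 17, the same as that of Lck. The genes of the related receptors Ctla4 and Icos lie on the same stretch of chromosome 1. This summit was the nearest to both of them, at 162641 bp from Ctla4 and 214389 bp from Icos, and neither had an interval of its own.

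Prkcq, the protein kinase C isoform that links the receptor to NF-kappaB, spans 129.3 kb of chromosome 2 from 11171905 to 11301226. Its interval ran from 11194643 to 11195296, the narrowest of the 7 at 654 bp. The summit at 11194800 had a height of 14, with 59.9% of the library's summits taller, and lay 22418 bp downstream of the start. No other gene was overlapped. The Prkcq promoter window was the richest in G and C among the 13, at 73.0%, with 37 CpG dinucleotides, and held neither a summit nor a match to any of the 4 sequences.

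The heights of the 7 summits were 10 at Lcp2, 14 at Prkcq, 16 at Ptprc, 17 at Lck, 17 at Cd28, and 23 and 35 at Ptpn22. With the tallest summit of each gene, the median over the 6 genes was 16.5, beside 16 over all 4168 protein-coding genes with an interval. The middle of the set therefore sat at the middle of the library. Only the Ptpn22 summits stood above the upper quartile of 19, and only the Lcp2 summit stood below the lower quartile of 13. No replicate gives the spread of a height, so that 14, 16 and 17 cannot be put in an order, and the library's heights ranged from 9 to 301.

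**Figure D3:**
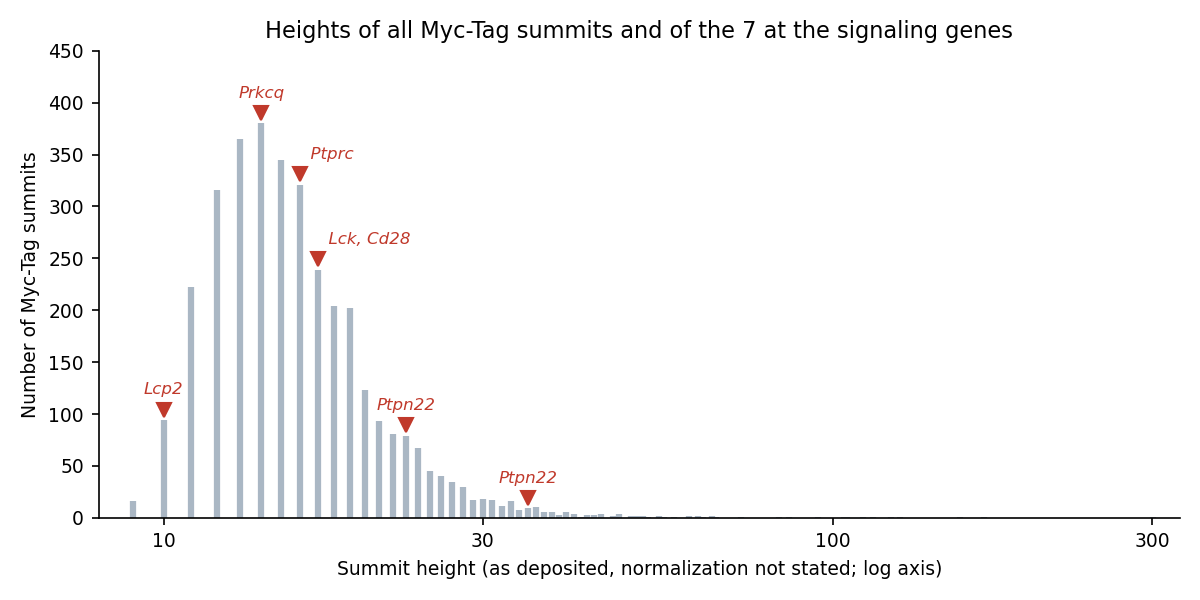
Number of Myc-Tag summits at each height in the library (vertical lines, log axis for height), with red triangles at the heights of the 7 summits assigned to the T-cell receptor signaling genes. Lcp2 stands near the low end at 10, Prkcq, Ptprc, Lck and Cd28 stand in the bulk at 14 to 17, and the Ptpn22 summits stand above it at 23 and 35.

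By position, 2 of the 7 summits lay within 1 kb of an end of a protein-coding gene, those at Cd28 and Rsbn1, and the other 5 lay inside a gene and away from its ends. Over the whole library, 58.4% of summits lay within 1 kb of such an end and 24.1% inside a gene and away from its ends. Of the 5 inside, those of Lck and Ptpn22 were at starts within the gene and those of Lcp2, Ptprc and Prkcq were not near a listed start. Whether the last 3 fall in exons or introns was not analysed here, because the gene table gives no exons. The median width of the 7 intervals was 894 bp, beside 752 bp over the library.

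Of the 13 promoter windows of these genes, 2 held a summit, those of Lck and Ptpn22, and over all 21263 promoter windows 900 (4.23%) held one. An interval overlapped 3 windows, with the upstream window of Ptpn22 as the third. TAATT was present in 3 of the 13 windows, 1 each of Lcp2, Ptprc and Ptpn22, and in 23.5% of all windows. TAAT was present in 5 of the 13 and in 51.8% of all, TGTGGT in 4 of the 13 and in 15% of all, and CCGGAAGT in 0 of the 13 and in 5.15% of all. The Ptpn22 window was thus the 1 of the 13 with both a summit and a TAATT, whereas the Lck window had a summit and the Lcp2 and Ptprc windows had a TAATT. A match is a description of the letters in these windows and not a binding site, and a window without one says nothing of sequence outside it.

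The base composition of the windows varied widely, from 33.7% G and C at a Ptprc start to 73.0% at Prkcq, with a median of 57.3% beside 56.3% over all windows. The 2 windows with a summit had 57.3% (Lck) and 48.7% (Ptpn22), with 5 and 3 CpG dinucleotides. Both were below the medians of the 900 windows with a summit in the whole library, which were 63.0% and 25 CpG. The windows of Fyn and Prkcq, with 31 and 37 CpG, were the only ones of the 13 above that median of CpG, and neither held a summit.

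Of 42 other genes of the pathway, 16 had an interval (38.1%), beside 19.0% of all protein-coding genes and 21.2% for genes of their length. The median height of the tallest summit was 16.5 here too, with a range of 10 to 36. Among the adaptors 7 of 15 had one, with tallest heights of 31 at Grap2 (Gads, which bridges Lat and Lcp2), 28 at Nck2, 19 at Dok2, 18 at Fyb (ADAP, which binds Lcp2), 18 at Trat1, 12 at Pag1 and 12 at Sit1. The Grap2 summit lay 85 bp outside the gene but 50971 bp upstream of the start listed for it, and Enthd1 was also within 10 kb. The Dok2 summit lay inside both Dok2 and Xpo7. That of Sit1 lay 9283 bp outside Sit1 and was nearest to Ccdc107. Grap2 and Fyb are on chromosome 15, of which the lymphoma lines karyotyped in the study had gained a copy, and its part in these 2 heights was not tested. None of the 9 genes is on chromosome 15.

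Of the phospholipase and the exchange factors that Lat and Lcp2 recruit, 3 of 4 had an interval, with heights of 14 at Plcg1, 16 at Vav1 and 14 at Rasgrp1, and Sos1 had none. The Plcg1 and Rasgrp1 summits lay 722 bp and 669 bp downstream of a start, and that of Vav1 lay 5644 bp outside the gene. Both phosphatases on the list had one, Ptpn6 (SHP-1) with a height of 17 and Ubash3a with 15, although the Ptpn6 summit was nearer to Grcc10. Of the ubiquitin ligases Cblb had one, of height 10, and Cbl had none. Of the calcium effectors, 3 of 7 had one. They were Ppp3cb, a catalytic subunit of calcineurin, with 36 and 14, Stim1 with 20, and Nfatc3 with 14 and 11. Both Ppp3cb intervals also overlapped the long noncoding RNA gene 1810062O18Rik. The Stim1 summit lay 4441 bp outside the gene, in an interval that overlapped Rrm1, its nearest gene. These groups are small, and by the same 10 kb rule 19.0% of all protein-coding genes had an interval. With each interval given to its nearest protein-coding gene only, 13 of the 42 pathway genes had one, beside 13.2% of all.

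None of the 5 receptors (Ctla4, Icos, Cd5, Cd6 and Cd2) had an interval. The kinases Csk, Txk and Tec had none either, nor did Bcl10 and Malt1, which act between Prkcq and NF-kappaB. Beside the 19.0% of all protein-coding genes, groups of this size with none are not set apart, and no difference between groups was tested.

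**Figure D4:**
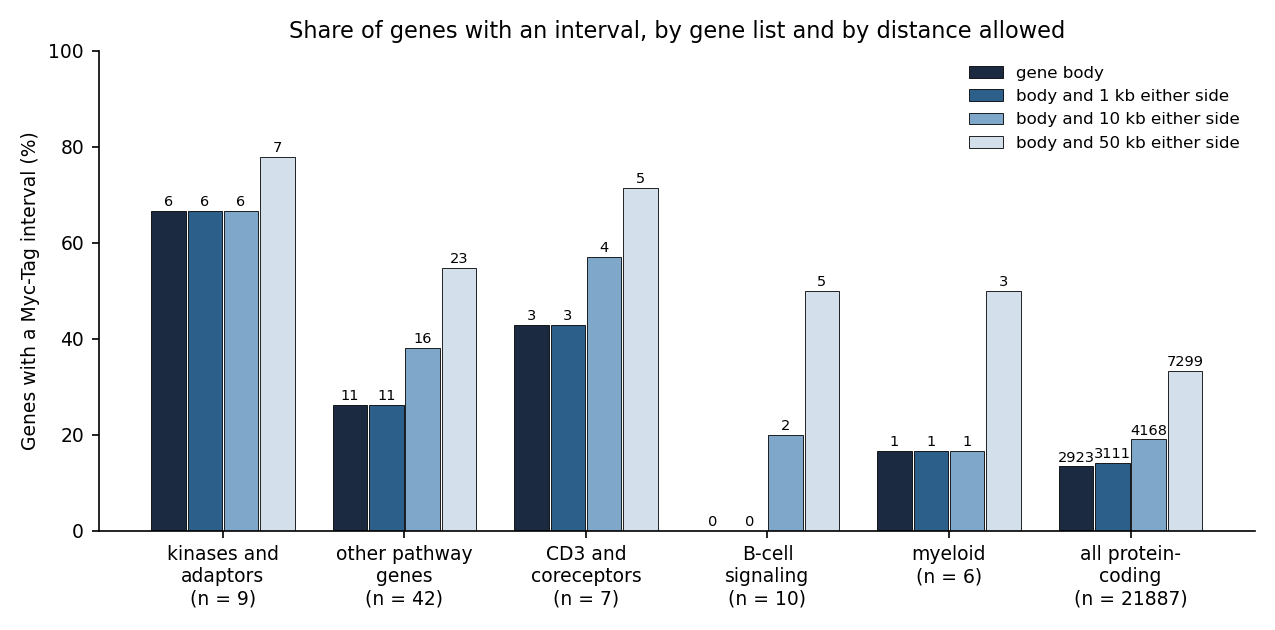
Percent of genes with a Myc-Tag interval in the gene body alone and with 1, 10 or 50 kb on either side (bars from dark to light), by gene list, with the number of genes above each bar. The kinases and adaptors stand at 66.7% for the first 3 distances and 77.8% at 50 kb, and all protein-coding genes rise from 13.4% to 33.3%.

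Upstream of these kinases, 4 of 7 genes for CD3 chains and coreceptors had an interval (57.1%), beside 19.0% of all protein-coding genes and 20.0% for genes of their length. Cd3d and Cd3g, neighbours on chromosome 9, shared both of theirs. The summit of height 15 lay 102 bp downstream of the Cd3d start, and that of height 10 lay 322 bp downstream of the Cd3g start. Cd8b1 had a summit of 14 that was 116 bp outside the gene, Cd4 had a summit of 10 that was nearer to P3h3, and Cd3e, Cd247 and Cd8a had none. As counterparts from other blood cells, 2 of 10 B-cell receptor signaling genes had an interval (20.0%) and so did 1 of 6 myeloid genes (16.7%), Fgr. Both shares are close to the 19.0% of all protein-coding genes. The B-cell intervals all lay in the flanks and were nearer to other genes. An interval is not a level of RNA, so these counts do not check the cell type named in the labels.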

How the data were processed

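The deposited file of the Myc-Tag ChIP holds 5 browser tracks with intervals and summits of both libraries. The submitters' processing notes name the aligner BWA and build mm9, and the methods name peak calling by MACS p-value on an Illumina GA II. The coordinates were read as mm10 (GRCm38), because the file has an interval on chromosome Y from 90812086 to 90813302, beyond the end of that chromosome in mm9, and 1907 of 3477 summits lay within 1 kb of a RefSeq start of GRCm38.p6. Per the deposited summit track, the height is a whole-number score without a stated normalization, made by the authors' caller, and 3329 of 3477 summits are on multiples of 16 bp. Of 28 input intervals, all 28 had the coordinates of a Myc-Tag interval.

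Intervals were assigned to genes with Python 3.11.15, numpy 2.4.6 and pandas 2.3.3, and drawn with matplotlib 3.10.9. The overlap and motif scripts were tested on simulated data. Gene and promoter tables came from RefSeq, without exons. The members and gene lists were chosen with earlier results of these data known. All 9 members are named, and every pathway gene with an interval. Some genes of the lists are not reported here by name. The alternatives were other distances (0, 1 and 50 kb), height thresholds, stricter overlaps, the nearest gene only, and the exclusion of input intervals, of Lck and of chromosome 15. The range of a percent is a Wilson 95% interval and covers counting error only. It treats genes as independent, although neighbours such as Cd3d and Cd3g can share an interval, and served here only as a limit for the alternatives. No library was left out of the analysis, and expression arrays were not analysed here.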

Additional observations from a re-analysis of the deposited data

How the results depend on the processing

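The exclusions of Lck and of chromosome 15 were chosen after seeing the data. Of 33 alternatives, 23 changed a count by no more than 1.5-fold or left a percent or median inside its limits, and 10 went past that. With heights at or above the upper quartile of 19, which keeps 975 of the 3477 intervals, the members with an interval fell from 6 to 1 (Ptpn22), and the other pathway genes from 16 to 5. At or above the median of 16, 4 members (Lck, Ptprc, Ptpn22 and Cd28) and 9 pathway genes were left. Over all protein-coding genes, the 19.0% (Wilson interval 18.5% to 19.6%) became 10.7% at or above the median height, 6.05% at or above the upper quartile, 13.4% in the gene body, 14.2% within 1 kb, 33.3% within 50 kb, 13.2% with each interval given to its nearest gene only, and 18.4% without chromosome 15. The height thresholds keep fewer intervals and the distances change the room searched. The same 6 members had an interval under the gene body, 1 kb, the stricter overlaps, the nearest gene only, and without input intervals. The other pathway genes with an interval went from 16 of 42 (38.1%) to 11 (26.2%) both in the gene body and within 1 kb. Within 50 kb, 23 of them (54.8%) had one. No interval at a member or pathway gene was called in the input, so leaving those out could not change either count. The median height stayed from 16 to 17. No paired analysis was possible because a group here is a single library, which also leaves no replicate to drop. Unknown depth limits every statement on a gene without an interval.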

Other observations

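The promoter windows that held a Myc-Tag summit differed in composition from those that held none, and the signaling genes are a small part of them. TAATT was in 14.3% of the 900 windows with a summit and in 23.9% of the 20363 windows without one, and TAAT in 38.6% and 52.4%. TGTGGT was in 11.4% and 15.1%. CCGGAAGT, which contains a CpG, went the other way, with 14.0% and 4.75%. The windows with a summit also had more G and C, at a median of 63.0% against 56.0%, and more CpG dinucleotides, at 25 against 12, and the part of base composition in the motif shares was not tested. In the named set of genes that opens the Results, 2 windows held a summit, those of Ptpn22 and Lck. The downstream Ptpn22 window also had a TAATT, and 48.7% G and C. The proximal Lck window had no TAATT and 57.3% G and C. Outside that set, the pathway gene Ppp3cb also had a summit in a promoter window. Its height was 36, it lay 19 bp upstream of the Ppp3cb start, and its interval also overlapped the long noncoding RNA gene 1810062O18Rik. A window reaches at most 250 bases before a start, so sequence outside it was not searched.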
